A study of Mus musculus with 6 samples.

Results

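The genes of prostaglandin and leukotriene synthesis were followed in DM1 myoblasts with and without miR-322/-503 overexpression, with 10 genes taken from the 55421 gene identifiers of the deposited tables. They were found by gene name in the tables of the single libraries and joined to the count table by gene identifier. The genes were chosen from a pathway whose fold changes between these same libraries were already known, so their levels and fold changes are given as a description, without p-values. The 10 genes were Pla2g4a, Ptgs1, Ptgs2, Ptges, Ptgis, Alox5, Alox5ap, Ltc4s, Lta4h and Hpgd, and all of them passed the filter on low counts.

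Gene expression was measured by RNA-seq of total RNA in C2C12 cells, a mouse myoblast line, on day 4 of differentiation, with 3 libraries per group. All cells carried the CUG200 transgene, a GFP plasmid with expanded CUG repeats behind the GFP sequence, which models myotonic dystrophy type 1 (DM1). The control group (CUG200-ctrl) also carried the empty pLL4.0 vector, and the other group carried the same vector with miR-322/-503. Each group was a stable line made by drug selection, so an effect of the miRNAs and a difference between the lines cannot be told apart, and the methods describe biological as well as technical replicates for the assays in general, while the labels do not say which kind these 3 libraries are. p-values therefore measure the spread between these libraries, which may in part be technical. Total estimated counts lay between 73532084 and 92157388 per library, at about 4 counts per read pair.

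Prostaglandins and leukotrienes are lipid signals made from arachidonic acid, which a phospholipase A2 frees from membranes. Cyclooxygenases turn the acid into prostaglandin H, from which terminal synthases make the single prostaglandins, whereas 5-lipoxygenase with its activating protein makes leukotriene A, from which leukotrienes B and C are made. Prostaglandins are known to act on myoblast proliferation, survival and fusion, and the 5-lipoxygenase branch is best known from leukocytes.

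The mature sequences of both miRNAs are shown because they set the sequence searched for in the genes. They were read from RefSeq (GRCm38.p6), 5′ to 3′, with the seed (bases 2 to 8) in capitals. miR-322-5p lies at chrX:53054306-53054327 and miR-503-5p at chrX:53054027-53054049, both on the minus strand.
miR-322-5p: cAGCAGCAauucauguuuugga
miR-503-5p: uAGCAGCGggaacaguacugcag
The seeds differ in their last base only, so all other letters of a miR-322 match are also those of a miR-503 match. The reverse complement of the miR-322 seed was TGCTGCT and that of the miR-503 seed CGCTGCT. In the longest annotated 3′ untranslated regions (3′UTRs, GENCODE M21) of the 10 genes, the miR-322 match was found in Ptgs2 and in Alox5, and the miR-503 match in none. The 3 sites are shown on the strand of the gene, with the match in capitals. In Ptgs2 the matches began at bases 780 and 1186 of a 3′UTR of 2445 bases, and in Alox5 at base 123 of 642. The printed stretches, with the bases on either side of the match, lie at chr1:150106554-150106576 and chr1:150106960-150106982 (plus strand) for Ptgs2 and at chr6:116410582-116410604 (minus strand) for Alox5.
Ptgs2 site at base 780: ggagcccgTGCTGCTctgtctta
Ptgs2 site at base 1186: gccagcatTGCTGCTcctcttag
Alox5 site at base 123: gctcgaagTGCTGCTcttgggcc
The genes with a match thus included 1 whose level fell and 1 whose level rose with miR-322/-503. Among the tested genes with an annotated 3′UTR, 3637 of 13487 (27.0%) held TGCTGCT, and their median log2 fold change was 0.01 against -0.02 in the genes without it. CGCTGCT was found in 771 (5.72%). A match of these letters is a description and does not show that the miRNA binds there.

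The study called a gene where its level changed by more than 1 on the log2 scale at an adjusted p under 0.05, and these cut-offs were applied to edgeR's quasi-likelihood test over 18140 genes. By them, 3 of the 10 genes were higher with miR-322/-503 (Alox5, Alox5ap and Hpgd). These cut-offs call 4.59% of all tested genes higher. Another 3 were lower (Ptgs2, Ptgis and Ltc4s), where the cut-offs call 5.29% of all tested genes. By the adjusted p alone, 4 were higher and 4 lower, with Ptgs1 and Pla2g4a as the additional genes, beside 13.2% and 15.5% of all tested genes. In 8 of the 10 genes the groups did not overlap in CPM (counts scaled to library size), as in 45.1% of all tested genes. Since the genes were chosen on this contrast, nothing is read from these counts. Levels below are in TPM, the deposited transcript abundance scaled to gene length and library size, which allows levels of different genes to be compared, whereas fold changes and their SE come from the counts. In bulk samples such as these, fewer cells of a type and less RNA per cell cannot be told apart.

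**Figure D1:**
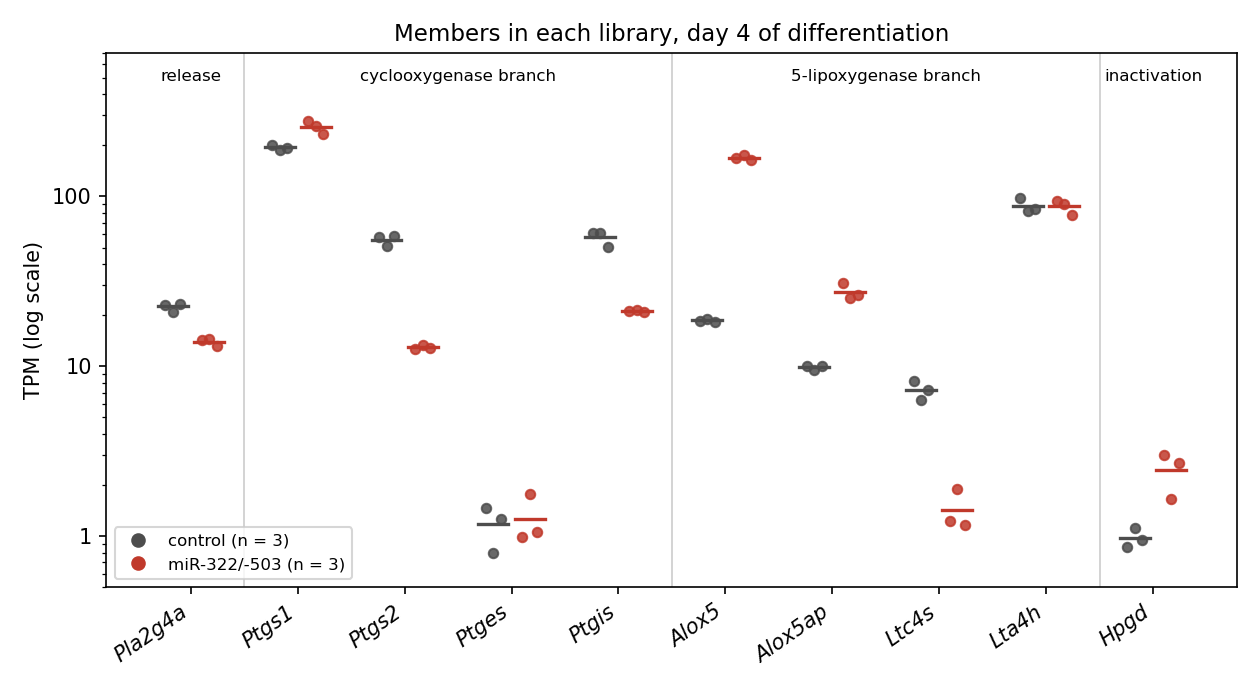
Level of each of the 10 genes in each library, in TPM (log scale), with control in grey and miR-322/-503 in red. Points are libraries (3 per group) and lines are group means. Alox5 stood at 18.3 to 19.0 TPM in control and 163 to 176 with miR-322/-503, while Ptgs2, Ptgis and Ltc4s were lower in every miR-322/-503 library than in every control library.

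Pla2g4a encodes the cytosolic phospholipase A2 that frees arachidonic acid from membranes (chr1:149829618-149961290, minus strand, GRCm38, as all gene positions here). Its level was 23.1, 21 and 23.4 TPM in the control libraries and 14.2, 14.5 and 13.2 TPM in the miR-322/-503 libraries. All 3 miR-322/-503 libraries were below all 3 control libraries, and the log2 fold change of -0.67 ± 0.08 (SE, n = 3 per group) was smaller than the cut-off. Pla2g4a and Ptgs2 are neighbours on chromosome 1, with 138741 bases between them. The 9 tested genes that start within 1 Mb of Pla2g4a, Ptgs2 included, had a median log2 fold change of 0.13, and the 8 around Ptgs2 one of 0.05.

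Ptgs1 and Ptgs2 encode the cyclooxygenases, of which Ptgs1 is known as the constitutive form and Ptgs2 as the form induced by cytokines and growth factors. Ptgs1 (chr2:36230426-36252272, plus strand) was the most abundant of the 10 genes in both groups. Its level was 202, 189 and 193 TPM in control and 279, 260 and 234 TPM with miR-322/-503, with no overlap, and its log2 fold change was 0.41 ± 0.06 (SE). Ptgs2 (chr1:150100031-150108227, plus strand) stood at 57.4, 51.1 and 58.6 TPM in control and at 12.6, 13.4 and 12.8 TPM with miR-322/-503. The Ptgs2 libraries of each group lay close together and far from those of the other group, and Ptgs2 fell 4.15-fold (log2 fold change -2.05 ± 0.07). Of the TPM of both cyclooxygenases together, Ptgs2 made up 21.3% to 23.2% in the control libraries and 4.32% to 5.17% in the miR-322/-503 libraries.

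The promoter of Ptgs2 is shown because Ptgs2 had the largest fall of the cyclooxygenase branch, and that of Alox5 because Alox5 had the largest rise of the 10 genes. Both run from 250 bases before to 50 bases after the RefSeq start (GRCm38.p6), 5′ to 3′ on the strand of the gene. The letters CANNTG (E-box), TGACG (core of the cyclic AMP response element), TGANTCA (AP-1), GGGCGG (GC box) and TATAAA were searched on both strands. Capitals mark E-boxes and the cyclic AMP core in Ptgs2 and the GC box in Alox5.
Ptgs2 promoter, chr1:150099781-150100080, plus strand: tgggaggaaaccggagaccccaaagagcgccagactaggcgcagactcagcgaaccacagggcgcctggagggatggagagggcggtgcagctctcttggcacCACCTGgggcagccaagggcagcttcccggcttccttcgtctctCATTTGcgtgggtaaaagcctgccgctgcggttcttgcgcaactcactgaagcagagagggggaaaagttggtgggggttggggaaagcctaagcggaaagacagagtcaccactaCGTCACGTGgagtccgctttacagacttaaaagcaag
Alox5 promoter, chr6:116461129-116461428, minus strand: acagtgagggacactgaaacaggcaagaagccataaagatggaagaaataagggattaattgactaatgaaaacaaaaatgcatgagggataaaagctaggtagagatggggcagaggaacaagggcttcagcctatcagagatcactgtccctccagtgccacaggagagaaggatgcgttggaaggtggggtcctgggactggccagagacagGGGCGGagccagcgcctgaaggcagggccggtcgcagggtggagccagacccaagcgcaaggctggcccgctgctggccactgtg
The Ptgs2 window held 3 E-boxes, starting at -147, -103 and 17 from the start site, and 1 cyclic AMP core at 14, which shared 2 bases with the last E-box. It also held 1 GC box at -170. The Alox5 window held no E-box and no cyclic AMP core, and 1 GC box at -35. Neither window held the AP-1 or TATAAA letters. Among 32851 promoters of the same length, 72.3% held an E-box, 20.8% the cyclic AMP core, 35.7% the GC box, 7.81% the AP-1 letters and 13.6% TATAAA. RefSeq promoters were found for 8 of the 10 genes. These letters do not show binding of a factor.

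Ptges and Ptgis encode terminal synthases that turn prostaglandin H into prostaglandin E and prostacyclin. Ptgis (chr2:167191805-167240604, minus strand) was measured at 61.3, 60.7 and 50.3 TPM in control and at 21.3, 21.5 and 20.8 TPM with miR-322/-503. Every miR-322/-503 library was below every control library, and Ptgis fell 2.68-fold (log2 fold change -1.42 ± 0.08). Ptges (chr2:30889471-30929863, minus strand), the inducible prostaglandin E synthase, was close to the bottom of the range, at 1.46, 0.796 and 1.26 TPM in control and 0.983, 1.76 and 1.05 TPM with miR-322/-503. The groups overlapped, the log2 fold change was 0.03 ± 0.25, and the sign of this value changed when single libraries were left out. The level rested on 68 to 100 estimated counts per library.

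In the 5-lipoxygenase branch, Alox5 (chr6:116410077-116461178, minus strand) encodes 5-lipoxygenase itself. Its level was 18.6, 19.0 and 18.3 TPM in control and 169, 176 and 163 TPM with miR-322/-503. The libraries of each group differed little, and Alox5 rose 9.86-fold (log2 fold change 3.30 ± 0.06). Alox5ap (chr5:149264767-149288153, plus strand) encodes the membrane protein that presents arachidonic acid to 5-lipoxygenase. It was measured at 10.1, 9.47 and 10 TPM in control and at 31.1, 25.1 and 26.4 TPM with miR-322/-503. The groups did not overlap, and Alox5ap rose 2.83-fold (log2 fold change 1.5 ± 0.10). Around Alox5ap the median log2 fold change was 0.56 over the 28 tested genes that start within 1 Mb, and 0.17 over chromosome 5. Of these 28 genes 4 were higher and 1 was lower by the adjusted p, beside 13.2% and 15.5% of all tested genes. Around Alox5 the median over 22 genes was 0.00.

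Ltc4s and Lta4h act on leukotriene A, to which Ltc4s joins glutathione to give leukotriene C and which Lta4h hydrolyses to leukotriene B. Ltc4s (chr11:50236461-50238616, minus strand) was measured at 8.19, 6.30 and 7.25 TPM in control and at 1.22, 1.89 and 1.16 TPM with miR-322/-503, that is in the direction opposite to Alox5 and Alox5ap. All 3 miR-322/-503 libraries were below all control libraries, and Ltc4s fell 4.87-fold (log2 fold change -2.28 ± 0.24). Its estimated counts were 217, 187 and 219 in control and 41, 50 and 36 with miR-322/-503. Gm26542, a gene on the opposite strand that overlaps Ltc4s, had 49, 53 and 86 estimated counts in control and 22, 11 and 27 with miR-322/-503, up to 75% of the Ltc4s count in a library. Whether the reads were counted by strand is not given in the sources used here, so reads of these overlapping genes cannot be told apart. Lta4h (chr10:93453411-93484875, plus strand), which is also an aminopeptidase found in most cells, was measured at 97.4, 82.5 and 84.8 TPM in control and at 94.4, 90.5 and 77.4 TPM with miR-322/-503. The groups overlapped (log2 fold change -0.00 ± 0.08).

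Hpgd (chr8:56294585-56321043, plus strand) encodes the prostaglandin dehydrogenase that starts the inactivation of prostaglandins. Its level was 0.868, 1.11 and 0.953 TPM in control and 3.01, 1.65 and 2.70 TPM with miR-322/-503. The groups did not overlap, replicate 2 of miR-322/-503 lay nearest to the control libraries, and Hpgd rose 2.55-fold from a low level (log2 fold change 1.35 ± 0.28). With limma on log2(TPM + 1) the log2 fold change was 0.79, under the cut-off of the study.

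The order of the 10 genes by mean TPM differed between the groups. In control it ran from Ptgs1 (195 TPM) over Lta4h (88.3), Ptgis (57.4), Ptgs2 (55.7), Pla2g4a (22.5), Alox5 (18.6), Alox5ap (9.85), Ltc4s (7.25) and Ptges (1.17) to Hpgd (0.977 TPM). With miR-322/-503 it ran from Ptgs1 (258 TPM) over Alox5 (169), Lta4h (87.4), Alox5ap (27.6), Ptgis (21.2), Pla2g4a (14), Ptgs2 (12.9), Hpgd (2.46) and Ltc4s (1.42) to Ptges (1.26 TPM). Neighbours whose libraries overlapped were Ptgis with Ptgs2 and Ptges with Hpgd in control. With miR-322/-503 they were Pla2g4a with Ptgs2, Hpgd with Ltc4s, and Ltc4s with Ptges. Alox5 thus stood at rank 6 in control and at rank 2 with miR-322/-503, and Ptgs2 at ranks 4 and 7.

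The branches were then compared as sums of TPM over 4 genes each. The cyclooxygenase branch (Ptgs1, Ptgs2, Ptges and Ptgis) summed to 322, 302 and 304 TPM in control and to 314, 297 and 269 TPM with miR-322/-503. These sums overlapped, at 309 ± 11.4 and 293 ± 22.5 TPM (SD, n = 3). A sum follows its most abundant gene, here Ptgs1, which made up 62.7% to 63.7% of it in control and 87.1% to 88.9% with miR-322/-503. Without Ptgs1 the log2 ratio of the group means was -1.69 in place of -0.08. The 5-lipoxygenase branch (Alox5, Alox5ap, Ltc4s and Lta4h) summed to 134, 117 and 120 TPM in control and to 295, 294 and 268 TPM with miR-322/-503. All miR-322/-503 libraries were above all control libraries, with a ratio of the means of 2.30 and a log2 ratio of 1.20. Here the rise of the sum was that of Alox5, since the log2 ratio was 0.14 without Alox5 and 2.47 without Lta4h.

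The makeup of the 5-lipoxygenase branch changed from mostly Lta4h to mostly Alox5. Lta4h made up 70.4% to 72.6% of the sum in control and 28.9% to 32.0% with miR-322/-503, and Alox5 13.8% to 16.2% and 57.1% to 60.9%. The share of Ltc4s was 5.37% to 6.10% in control and 0.412% to 0.644% with miR-322/-503. The ratio of Alox5 to Ltc4s was accordingly 2.27 to 3.02 in control and 93.2 to 141 with miR-322/-503. The cyclooxygenase sum was 2.40 to 2.57 times the 5-lipoxygenase sum in control and 1.0 to 1.06 times with miR-322/-503. The median log2 fold change of the branch members was -0.70 for the cyclooxygenase and 0.75 for the 5-lipoxygenase branch, but each branch held genes of both signs.

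**Figure D2:**
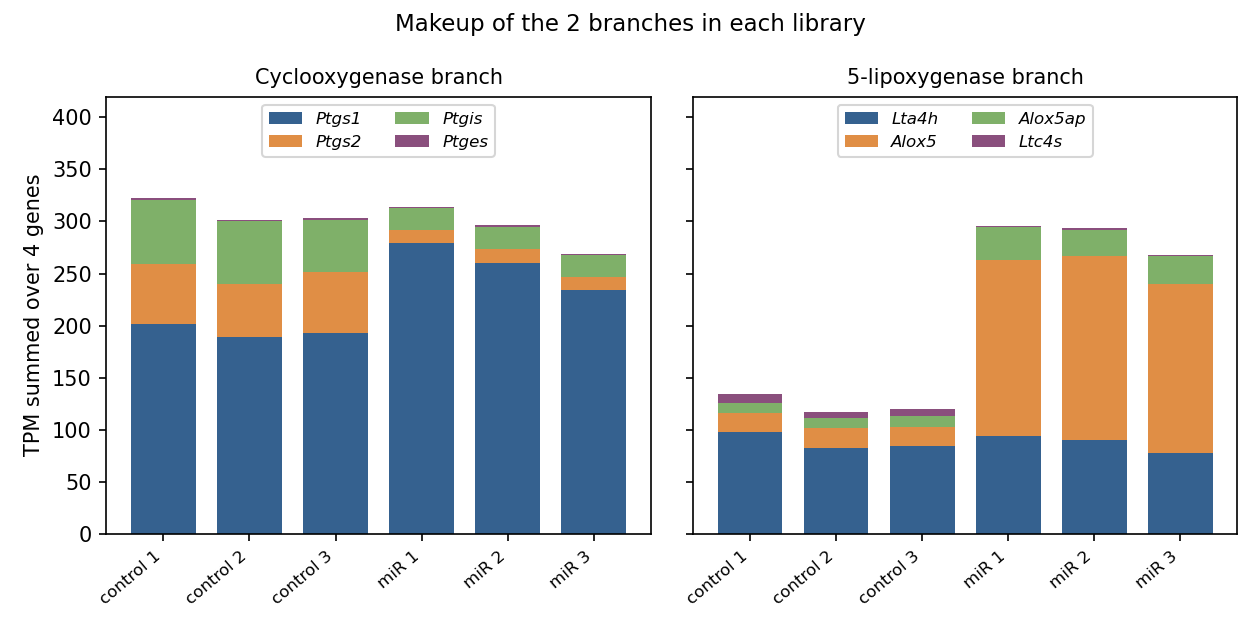
TPM summed over the 4 genes of the cyclooxygenase branch (left) and of the 5-lipoxygenase branch (right) in each library, with each gene as a stacked segment and the axis starting at 0. The cyclooxygenase sums lay between 269 and 322 TPM in all 6 libraries, whereas the 5-lipoxygenase sums rose from 117 to 134 TPM in control to 268 to 295 TPM with miR-322/-503 through the Alox5 segment.

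A wider list of 58 other genes of the pathway, chosen with earlier results of these data known, was counted beside them. Of these, 12 were listed at 0 in all libraries and 34 could be tested. By the cut-offs of the study 5 of the 34 rose and 3 fell, beside 4.59% and 5.29% of all tested genes. By the adjusted p alone 5 rose and 6 fell, beside 13.2% and 15.5% of all tested genes, while 23 did not pass. The median log2 fold change of the 34 genes was 0.03, against -0.01 over all tested genes.

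Among the phospholipase A2 genes, 9 of 17 were tested and Pla2g5, a secreted form, rose from 0.109 to 0.176 TPM in control to 1.24 to 1.40 TPM with miR-322/-503 (log2 fold change 2.59 ± 0.52 (SE), edgeR adjusted p = 0.00833). This rested on 17, 11 and 19 estimated counts in control and 47, 105 and 121 with miR-322/-503. Pla2g16 was the most abundant form and was lower by the adjusted p alone, with 60.1 to 71.1 TPM in control and 32.8 to 44.0 TPM with miR-322/-503 (log2 fold change -0.59 ± 0.08, edgeR adjusted p = 0.00124). Pla2g6, a calcium-independent form, and Pla2g15, a lysosomal form, did not pass, with log2 fold changes of 0.10 ± 0.13 and 0.05 ± 0.11.

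None of the 7 tested prostanoid synthases outside the 10 genes passed the test. Akr1b3, an aldose reductase that can make prostaglandin F, was measured at 290 to 359 TPM in control and 321 to 376 TPM with miR-322/-503 (log2 fold change 0.09 ± 0.09). The constitutive cytosolic prostaglandin E synthase Ptges3 had 52.1 to 81.6 and 65.2 to 84.7 TPM (0.13 ± 0.19), and the carbonyl reductase Cbr1 27.6 to 32.2 and 23.2 to 27.5 TPM (-0.20 ± 0.10). In each library Ptges3 therefore stood far above Ptges, whose highest value was 1.76 TPM. Of the transport and inactivation genes, the exporter Abcc4 was lower by the adjusted p alone (log2 fold change -0.49 ± 0.08, edgeR adjusted p = 0.00345), in a region whose 9 tested genes had a median of -0.36, and the prostaglandin reductases Ptgr1 and Ptgr2 did not pass (-0.01 ± 0.07 and -0.12 ± 0.06).

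Of the 9 prostanoid receptors 6 were tested. By the cut-offs 1 was higher and 2 were lower, beside 4.59% and 5.29% of all tested genes. By the adjusted p alone 1 was higher and 3 were lower, beside 13.2% and 15.5% of all tested genes, and 2 did not pass. Ptger4, a receptor of prostaglandin E that raises cyclic AMP, rose from 3.52 to 4.87 TPM in control to 9.71 to 11.8 TPM with miR-322/-503 (log2 fold change 1.41 ± 0.13, edgeR adjusted p = 2.18e-04). Ptgfr, the receptor of prostaglandin F, fell from 4.19 to 5.62 TPM to 0.906 to 1.27 TPM (log2 fold change -2.12 ± 0.15, edgeR adjusted p = 5.2e-05). Ptger3, another receptor of prostaglandin E, was called lower by the cut-offs at no more than 0.352 TPM in any library. Its estimated counts were 10, 39 and 43 in control and 0, 0 and 4 with miR-322/-503, so control replicate 1 was itself under the floor of 12 counts per library. The mean of the control libraries gave a level at least 2.49-fold lower with miR-322/-503. This call of Ptger3 held in only 7 of 15 alternative settings, and was lost without control replicate 2 or 3 or without miR-322/-503 replicate 1 or 2. Ptger1 was lower by the adjusted p alone (log2 fold change -0.78 ± 0.11, edgeR adjusted p = 0.00179), and the 45 tested genes within 1 Mb of it had a median of -0.87. The prostacyclin receptor Ptgir had 2.72 to 3.12 and 2.56 to 3.20 TPM (-0.04 ± 0.14), and the thromboxane receptor Tbxa2r at most 0.225 TPM.

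Of the genes of leukotriene conversion, 3 were higher and 1 was lower of 7 tested, by the cut-offs (4.59% and 5.29% of all tested genes) and by the adjusted p alike (13.2% and 15.5%). Mgst3 and Mgst2 encode microsomal glutathione transferases related to Ltc4s, and both rose. Mgst3 rose from 34.4 to 45.1 TPM in control to 87.6 to 103 TPM with miR-322/-503 (log2 fold change 1.24 ± 0.11, edgeR adjusted p = 1.59e-04). Mgst2 rose from 0.941 to 1.73 TPM to 2.65 to 3.91 TPM (1.34 ± 0.33, edgeR adjusted p = 0.0195). The call of Mgst2 held in 11 of 15 alternative settings. It was lost without control replicate 2 or 3, without miR-322/-503 replicate 3 and with limma on log2(TPM + 1).

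Dpep2, a dipeptidase that turns leukotriene D into leukotriene E, has 2 overlapping identifiers on the same strand in the annotation, and they were called in opposite directions. The shorter one (chr8:105984944-105991759) rose from 0.171 to 0.413 TPM to 2.16 to 3.18 TPM (2.67 ± 0.32, edgeR adjusted p = 7.45e-04). The longer one (chr8:105984945-105996423), which is outside the list's counts, was called lower, with 13, 50 and 26 estimated counts in control and 2, 2 and 1 with miR-322/-503. How reads were divided between them is uncertain, but their summed level was 0.474 to 0.957 TPM in control and 2.17 to 3.20 TPM with miR-322/-503, without overlap.

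Cyp4f14, a cytochrome that oxidises leukotriene B, was at least 5.21-fold lower, from 0.513 to 0.838 TPM in control to no more than 0.0921 TPM with miR-322/-503. Its call held in 10 of 15 alternative settings. It was lost without control replicate 1 or 3, without miR-322/-503 replicate 3, with at least 10 counts in every library and with limma on log2(TPM + 1). The exporter Abcc1 had 50.2 to 52.3 and 42.6 to 57.2 TPM and did not pass (0.06 ± 0.05), like Dpep1 (-0.20 ± 0.29) and Ggt5 at 0.173 TPM or less. The leukotriene receptors were not tested, since none of the 5 passed the filter and 3 were listed at 0 in every library. Of 6 other lipoxygenases, Alox12 alone was tested and did not pass, at no more than 0.237 TPM. These 6 genes summed to no more than 0.437 TPM in any library, below the lowest Alox5 level of 18.3 TPM.

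**Figure D3:**
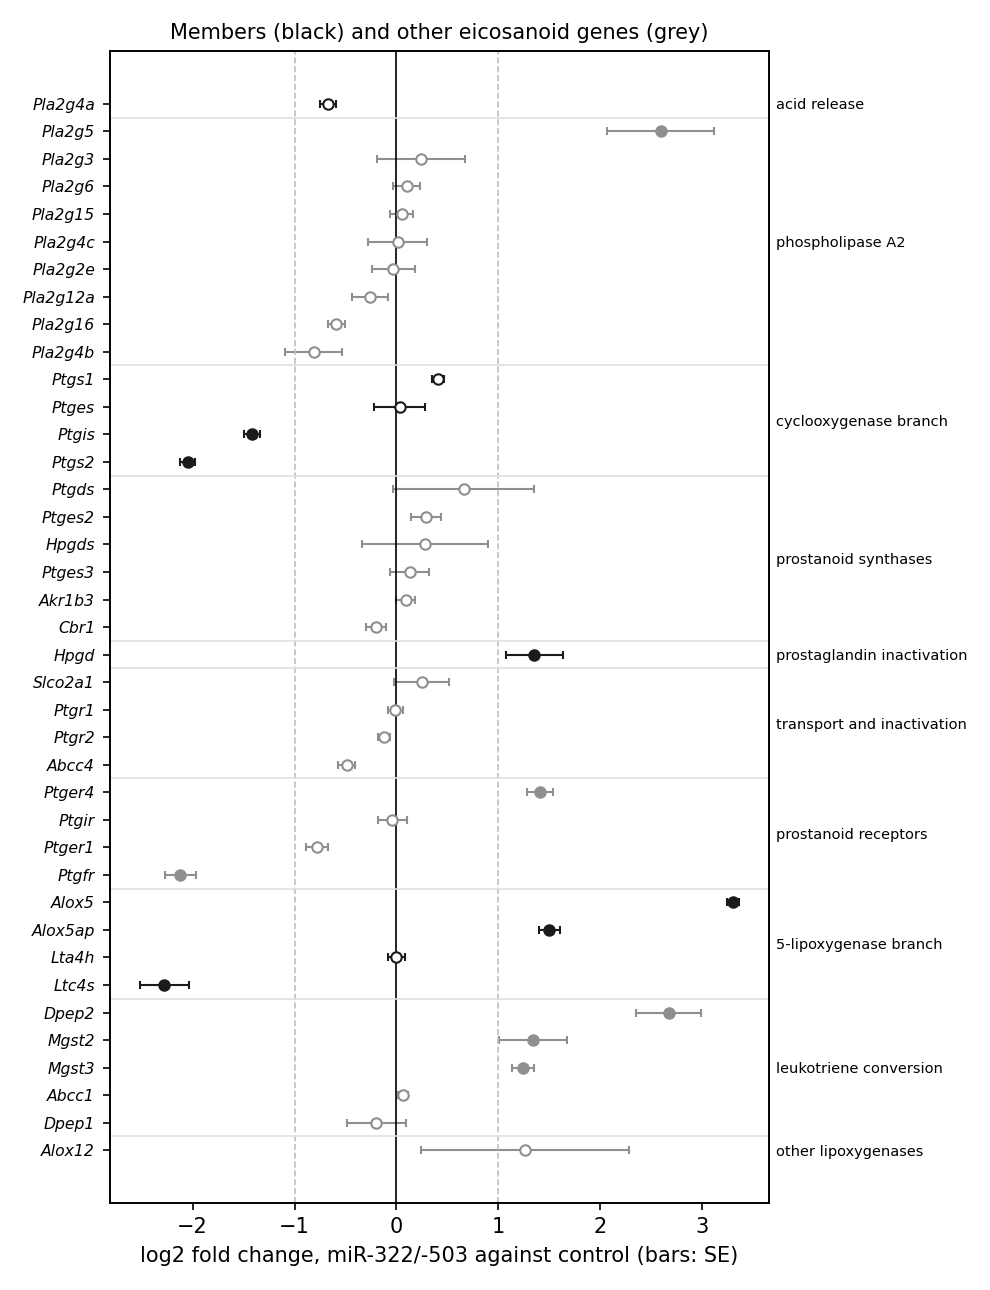
Log2 fold change of miR-322/-503 against control with its SE for the 10 genes (black) and the tested genes of the wider list (grey), in the order of the pathway. Filled points passed the cut-offs of the study, dashed lines mark a log2 fold change of 1 and -1, and Ptger3, Cyp4f14 and other genes with a group at or under the floor of 12 counts are left out. Dpep2 is shown by the shorter of its 2 identifiers, and the longer one was called lower. Of the genes plotted, Alox5 (3.30) lay farthest to the right and Ltc4s (-2.28) farthest to the left.

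The median log2 fold changes of the genes within 1 Mb of Ptgs1 (0.13, 16 genes), Ptges (-0.11, 48 genes), Ptgis (-0.07, 28 genes), Ltc4s (-0.02, 19 genes), Lta4h (0.04, 17 genes) and Hpgd (0.03, 2 genes) lay between -0.11 and 0.13. With a window of 0.5 or 2 Mb the median around Alox5ap was 0.58 and 0.45. Around Pla2g4a it was -0.20 within 0.5 Mb, over 4 genes, and 0.13 within 2 Mb.

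**Figure D4:**
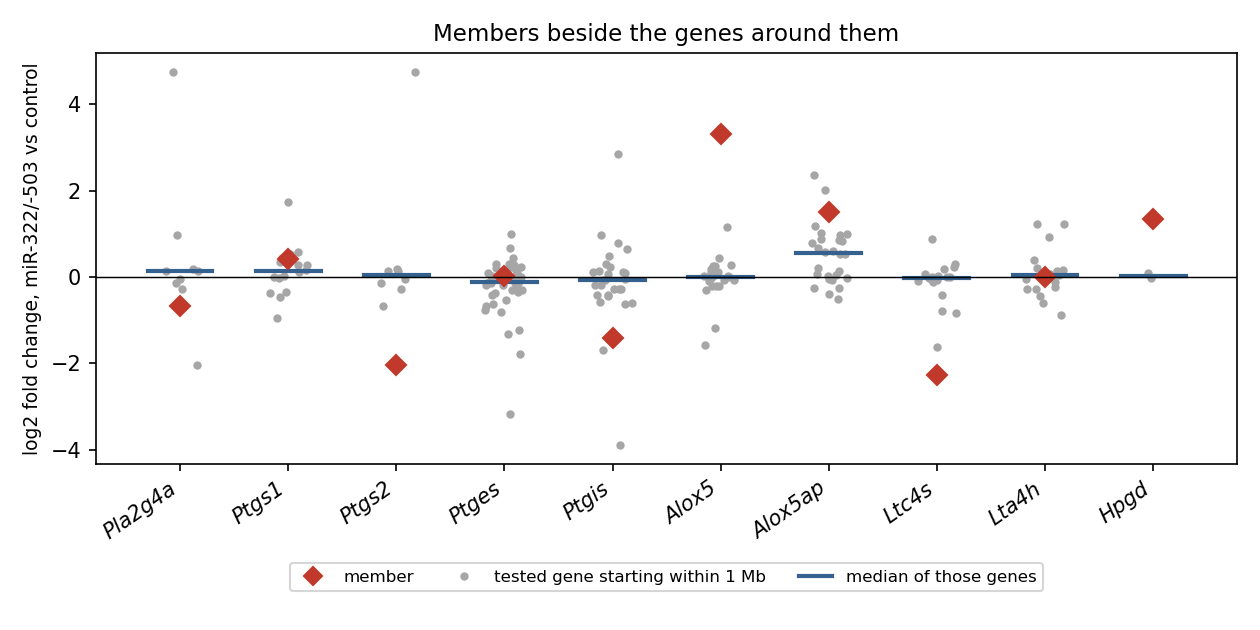
Log2 fold change of each of the 10 genes (red diamonds) beside those of the tested genes that start within 1 Mb of it (grey points) and their median (blue line). The medians lay between -0.11 and 0.13 except around Alox5ap, where it was 0.56.

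The pattern of Ptgs2 and of Alox5 over the 6 libraries was compared with that of 13596 genes whose CPM averaged 1 or more over all 6 libraries, by the root mean square distance of centred log2 CPM values. Nearest to Ptgs2 were Timp3, an inhibitor of matrix proteases (distance 0.0456), Lama4, a laminin chain (0.0652), and Pcdh18, a protocadherin (0.0716). Nearest to Alox5 were Fgd4, an exchange factor of Cdc42 (0.0641), Il33, a cytokine (0.0701), and Sulf1, a heparan sulfatase (0.0925). The log2 fold changes were -2.08, -2.0 and -2.03 for the first set and 3.39, 3.37 and 3.15 for the second, so the likeness is mostly that of the difference between the groups.

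The libraries expressed skeletal muscle markers throughout, such as Acta1 (1530 to 1930 TPM in control, 1760 to 1920 TPM with miR-322/-503) and Des (733 to 832 and 1160 to 1210 TPM). Of 12 muscle markers 7 were higher and 1 lower by the adjusted p, beside 13.2% and 15.5% of all tested genes. Myl1 and Tnnt3 were higher by the cut-offs, and 4 markers did not pass. The lower marker was Myog, at 234 to 271 TPM in control and 138 to 171 TPM with miR-322/-503 (log2 fold change -0.74 ± 0.09). The summed level of the 12 markers was 3670 to 4100 TPM in control and 5010 to 5360 TPM with miR-322/-503. The part of these markers in the values of the 10 genes was not tested.

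Since 5-lipoxygenase, its activating protein and Ltc4s are known from leukocytes and mast cells, markers of these were examined too. The macrophage genes Adgre1 and Tyrobp were listed at 0 in every library, and Ptprc at no more than 0.0178 TPM. The summed macrophage level was 23.1 to 30.2 TPM in control and 20.4 to 24.6 TPM with miR-322/-503. It came mostly from Cd14 (18.3 to 23.0 TPM in control, 14.6 to 18.1 TPM with miR-322/-503) and Cd68 (3.09 to 5.34 and 5.23 to 6.30 TPM). Of 4 tested macrophage markers 2 were lower and none higher by the adjusted p, beside 15.5% and 13.2% of all tested genes. These were Cd14 (log2 fold change -0.34 ± 0.10) and Lyz2. Lyz2 was also lower by the cut-offs, as were 5.29% of all tested genes, and was at least 8.55-fold lower. The mast cell genes Cpa3, Mcpt4 and Fcer1a were listed at 0 in every library, and the summed level was 1.25 to 1.40 and 1.43 to 3.52 TPM, almost all of it Tpsab1, with Cma1 at no more than 0.375 TPM.

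The platelet genes Pf4 and Gp6 were likewise listed at 0, and the summed level was 3.31 to 8.04 and 3.06 to 4.53 TPM, from Itga2b and, in control replicate 1, Gp1bb at 3.74 TPM. Of 7 endothelial markers 2 could be tested, Tek and Vwf, and Tek was called higher, as were 4.59% of all tested genes by the cut-offs, rising from 0.410 to 0.524 TPM to 1.52 to 2.18 TPM (log2 fold change 1.90 ± 0.19, edgeR adjusted p = 3.42e-04), while Vwf had no more than 0.310 TPM and Tie1 and Emcn were listed at 0. The summed endothelial level was 0.573 to 0.835 and 1.61 to 2.47 TPM. Adipocyte markers were at 0 apart from Plin1 at no more than 0.0790 TPM. The fibroblast markers, which C2C12 cells also express, summed to 4330 to 4620 TPM in control and 3070 to 3320 TPM with miR-322/-503. Of 5 tested, 4 were lower and 1 higher by the adjusted p (15.5% and 13.2% of all tested genes), with Col3a1 at 3300 to 3560 and 1950 to 2090 TPM, Col1a1 at 582 to 627 and 790 to 914 TPM, and Lum lower by the cut-offs (21.8 to 25.1 and 1.84 to 3.41 TPM). The sum followed Col3a1, its most abundant gene, while Col1a1, the next in level, was higher with miR-322/-503. The summed level was lower with miR-322/-503, as were Ptgs2 and Ptgis, and the part of these markers in those values was not tested.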

How the data were processed

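RNA-seq reads of 6 libraries were trimmed by the authors with Trim-Galore, aligned to GRCm38 with Hisat2 and counted with Stringtie, whose versions and gene annotation are not given in the sources used here. The deposited table holds estimated counts per gene, unnormalized, and was used as deposited. The deposited table of each library gives a coverage signal beside FPKM and TPM values, as Stringtie wrote them for the authors. FPKM was not used, and the coverage gave the number of counts per read pair (about 4), so counting precision is overstated, although the spread was estimated between libraries. Lower bounds cover counting error only.

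Counts were tested with edgeR 4.0.16 under R 4.3.3, with TMM factors and its quasi-likelihood functions, on the 18140 genes that filterByExpr kept, and p-values were adjusted after Benjamini-Hochberg. The procedure was checked on simulated counts. CPM values were TMM-normalized, and the SE is the size of the log2 fold change divided by the square root of F. DESeq2 1.42.0, limma 3.58.1, other scalings and filters, the replicate number as a block and leaving out each library were alternatives. A fold against a group with no library over 12 counts (3 read pairs) was given as a lower bound. TMM factors lay between 0.977 and 1.03. All replicate pairs differed by more than sampling noise.

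The 10 genes, the wider list of 58 and the marker lists were chosen with earlier results of these data known. The text names all 10, the called genes and at most 3 further abundant genes of each list, 2 abundant and the called genes of each marker list and 3 genes nearest to Ptgs2 and to Alox5. Marker genes at or near 0, which define a cell type, were named in addition after their values were seen, and so was Myog. The motifs were chosen after the data were seen. Symbols were matched through gene identifiers, of which 55154 were found in GENCODE M21.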

Additional observations from a re-analysis of the deposited data

How the results depend on the processing

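Of 150 alternative values of single members, 138 kept their direction and their side of the adjusted p threshold, and the other 12, all of Ptges and Lta4h, which passed no threshold, changed sign. For Lta4h these were 0.01 with DESeq2, RLE factors or counts per read pair, 0.02 with upper-quartile factors and 0.00 with no filter, at least 10 counts or the replicate block. Leaving out single libraries gave -0.04 to 0.07 for Lta4h and -0.13 to 0.12 for Ptges. The log2 fold change of Hpgd ranged from 0.79 (with limma on log2(TPM + 1), under the cut-off of the study) to 1.58 and that of Ltc4s from -2.49 to -1.77. The members called by the cut-offs were 2 higher in that setting and 3 in the others, and 3 lower in all alternatives.

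With limma on log2(TPM + 1), 391 genes were called higher and 564 lower, in place of 832 and 959, since the pseudocount shrinks the fold changes of low genes. The genes of the wider list called lower were 1 in place of 3 with at least 10 counts in every library or with limma on log2(TPM + 1), and 1 to 3 with single libraries left out (1 without control replicate 3). Ptgfr held in all 15 alternatives. The log2 ratio of the 5-lipoxygenase sums was 1.20, but 1.64 in CPM, 2.47 without Lta4h and 0.14 without Alox5. That of the cyclooxygenase sums was -0.08, but -1.69 without Ptgs1.

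Replicate numbers were shared between the groups, but the deviations of same-numbered libraries correlated only weakly (0.1305, 0.0687 and 0.0451), not over 0.1 in every pair, so no pairing was assumed. Each library correlated best with its own number (other pairs -0.1078 to 0.0401), which is a hint from the data and not from the design. With the replicate block, 747 genes were called higher and 893 lower, and the calls of the members were 3 and 3 as without it. Depth limits Ptges, Hpgd and Ltc4s most, since they had the fewest counts.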
